A study of Mus musculus with 6 samples.

Results

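Kupffer cells are the macrophages that live in the sinusoids of the liver. The genes followed here are 33 markers of Kupffer cells and of macrophages and other myeloid cells in general, taken by gene symbol from a list and all found among the 16123 genes of the deposited liver expression table. Of these, 9 were grouped as markers of resident Kupffer cells (Adgre1, Clec4f, Vsig4, Marco, Timd4, Cd5l, Folr2, Spic and Cd163). Some of the 9, such as Folr2 and Cd5l, are not confined to Kupffer cells among macrophages. The other 24 are shared more widely among macrophages, monocytes and neutrophils. The list was put together with earlier results of these data known, so its direction is described and not tested as a list.

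The exercise group was 3 healthy adult mice trained by treadmill running for 6 weeks, over a distance of 22 km per mouse, whose livers were taken 24 h after the last training. The sedentary group was 3 control mice without this training. The study asked how moderate exercise affects liver metabolism. Strain, sex and exact age are not given in the labels. All samples were pieces of whole liver, described as taken after perfusion with phosphate buffered saline, and were not sorted by cell type.

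Kupffer cells settle in the liver before birth and renew themselves there, under the growth factor receptor encoded by Csf1r. They take up bacteria, aged red cells and complement-coated particles from portal blood, and present a set of surface receptors that blood monocytes lack, among them Clec4f, Vsig4 and Timd4. When Kupffer cells are lost, monocytes can enter from the blood and take on the same genes, with Timd4 acquired late. In bulk liver RNA, fewer cells of a type and less RNA per cell cannot be told apart, and that holds for every value that follows.

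The libraries held 17941303 to 18371949 counts, and libraries of 1 group differed little more than counting noise. When libraries were compared in pairs, chi-square averaged 1.13 to 1.21 per gene within groups, where counting alone gives 1, and 4.51 to 4.81 between groups (genes of 20 to 2000 reads). The p-values therefore measure the spread among these 6 libraries, which may be smaller than that among mice in general. Hepatocyte RNA dominated, with albumin (Alb) at 46011.5 ± 423 FPKM in exercise and 46244.0 ± 842 FPKM in sedentary libraries (SD, n = 3 each). FPKM, fragments per kilobase of transcript scaled to the size of the library, is given as deposited.

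The markers that define a Kupffer cell were all present in every library. Clec4f, a C-type lectin that binds galactose-terminated glycans, was well expressed, Vsig4, a complement receptor, less so, and Timd4, a receptor for phosphatidylserine on dying cells, and Adgre1, which encodes the F4/80 antigen, were low. The range over the 6 libraries was 44.8 to 54.7 FPKM for Clec4f, 23.3 to 26.6 FPKM for Vsig4, 4.28 to 5.44 FPKM for Timd4 and 5.70 to 6.58 FPKM for Adgre1. The label of the list thus matched the defining markers in these livers.

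Among the markers that could be tested, a larger share than among all tested genes was lower in the livers of exercised mice, by modest amounts, and 1 marker was higher. Of the 28 markers that reached the filter of a mean of 1 FPKM over the 6 libraries, 16 fell, 1 rose and 11 did not pass the test (edgeR quasi-likelihood test, threshold of 0.05 after adjustment over all 10266 tested genes). Over all tested genes, 19.0% were called lower and 19.1% higher, and their median log2 fold change (exercise minus sedentary) was −0.00062. The median of the tested markers was −0.27, and 26 of the 28 had a negative log2 fold change. On the FPKM scale, 15 tested markers were without overlap between groups and lower in exercise and 1 was without overlap and higher, where 14.3% of all tested genes were lower and 36.6% higher in that way. The 5 markers below the filter are not part of these counts, and Tlr2 reached it only through its sedentary libraries.

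The changes were small, so the calls depend on how small a change is of interest. Tested against a 1.2-fold change instead of no change, 3 markers passed, all lower (Marco, Mpeg1 and Cd5l), where 4.03% of all genes did so in that direction and 2.33% in the other. Il1b missed that test (adjusted p = 0.0654). DESeq2 called 10 markers lower and the same 1 higher, where it called 12.1% of all tested genes lower and 12.4% higher. When libraries were scaled by their totals alone, without the TMM factors of edgeR, 3537 of all genes were called higher and 1203 lower, in place of 1961 and 1952. The median of all genes was then 0.08 on the log2 scale, 13 markers were called lower, and Adgre1, Msr1 and Cd68 no longer passed.

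**Figure D1:**
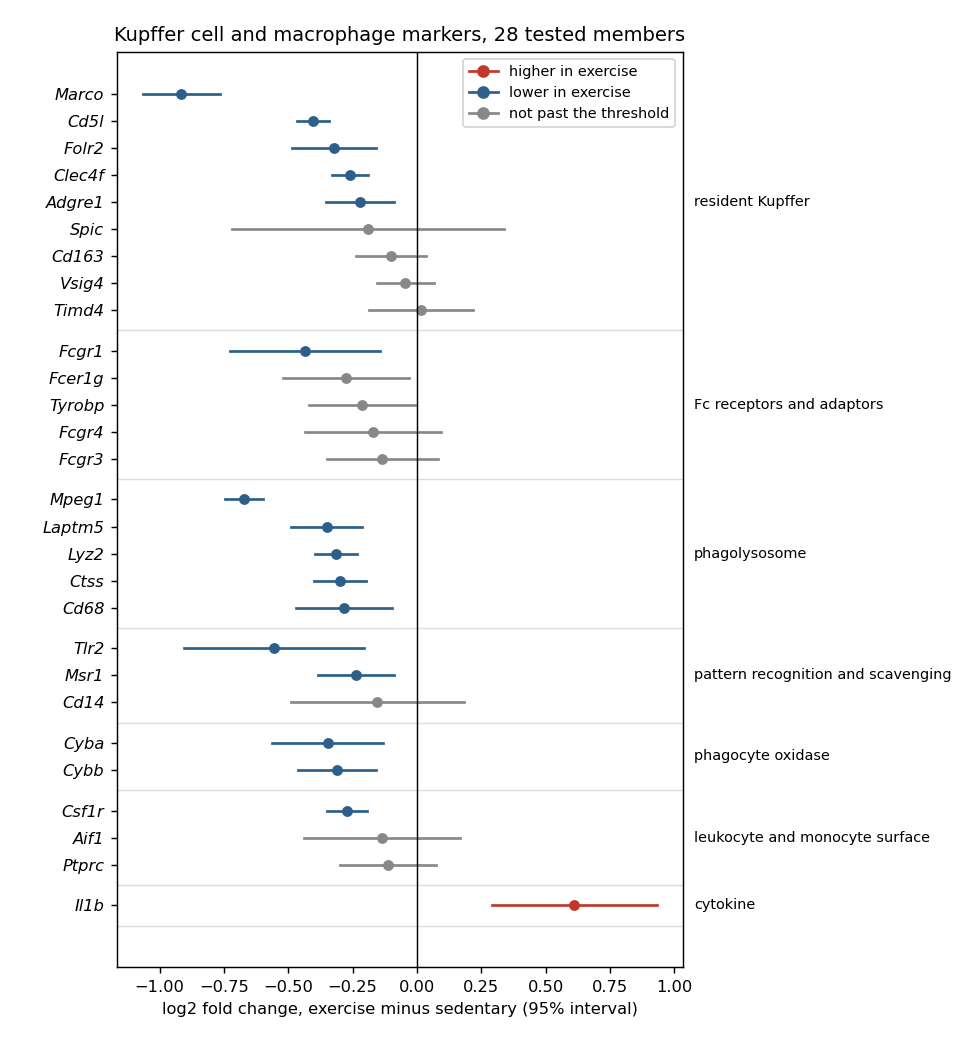
Log2 fold change of each of the 28 tested markers, exercise minus sedentary, with its 95% interval from the edgeR fit; genes are grouped by role and coloured by call. Marco and Mpeg1 lie farthest to the left, Vsig4 and Timd4 sit at 0, and Il1b is the marker on the right.

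Among the resident Kupffer markers, 5 of 9 fell, 4 did not pass and 0 rose by edgeR, and the median log2 fold change was −0.22. At an unadjusted p under 0.05 the count was also 5 lower and 0 higher, where 22.8% of all tested genes were lower and 23.0% higher. DESeq2 called 4 lower and 0 higher (12.1% and 12.4% of all tested genes). The fall was far from uniform, and the members are given from the most to the least changed.

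Marco, a scavenger receptor that binds bacteria and particles, had 6.45, 7.39 and 7.09 FPKM in exercise libraries, against 13.31, 11.89 and 12.3 FPKM in sedentary libraries. Every exercise library was well below every sedentary one. The fall of Marco (gene ID 17167, at 120474538 to 120505024 on chromosome 1 of GRCm38.p6) was 1.89-fold, a log2 fold change of −0.92 (SE 0.07, edgeR adjusted p = 1.81e-14).

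Cd5l, a secreted protein of macrophages that supports their survival and modifies lipid synthesis, was the most abundant resident marker per length of transcript. It had 60.6, 61.34 and 60.19 FPKM in exercise libraries, against 77.09, 73.67 and 78.07 FPKM in sedentary libraries. The groups stood well apart, and Cd5l fell 1.32-fold (log2 fold change −0.40, SE 0.03, edgeR adjusted p = 4.34e-15).

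Folr2, a folate receptor of tissue macrophages, had 15.75, 13.55 and 16.08 FPKM in exercise libraries, against 18.61, 18.12 and 17.59 FPKM in sedentary libraries. The groups did not overlap, and Folr2 fell 1.25-fold (log2 fold change −0.32, SE 0.08, edgeR adjusted p = 0.00132). Clec4f had 47.18, 44.81 and 48.84 FPKM in exercise libraries, against 51.2, 54.44 and 54.69 FPKM in sedentary libraries. Each exercise library was again lower, and Clec4f fell 1.2-fold (log2 fold change −0.26, SE 0.03, edgeR adjusted p = 2.02e-08).

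Adgre1 had 5.73, 5.99 and 5.7 FPKM in exercise libraries, against 6.28, 6.29 and 6.58 FPKM in sedentary libraries. The groups did not overlap, but the shift was the smallest among the resident markers that passed, at 1.17-fold (log2 fold change −0.22, SE 0.07, edgeR adjusted p = 0.00608). It did not pass without TMM scaling (adjusted p = 0.0694) or by DESeq2 (adjusted p = 0.0679). In all, Adgre1 did not pass in 6 of 17 alternatives, among them each limma fit.

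The other 4 resident markers did not pass. Vsig4 had 26.56, 23.63 and 25.09 FPKM in exercise libraries, against 25.27, 25.34 and 23.28 FPKM in sedentary libraries. Timd4 had 4.64, 5.44 and 4.79 FPKM in exercise libraries, against 4.28, 4.93 and 4.79 FPKM in sedentary libraries. The libraries of the 2 groups were interleaved for both genes. The log2 fold change of Vsig4 was −0.05 with a 95% interval of −0.16 to 0.07, and that of Timd4 was 0.01 with an interval of −0.19 to 0.22. The sign of Vsig4 turned without TMM, at 0.03. Both intervals lie wholly above the log2 fold change of Marco, and changes within them cannot be told from none at this depth.

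Cd163, the receptor that clears haemoglobin bound to haptoglobin, had 5.02, 4.24 and 4.48 FPKM in exercise libraries, against 4.89, 4.47 and 4.68 FPKM in sedentary libraries. The groups overlapped, with a log2 fold change of −0.10 and an interval of −0.24 to 0.03. Spic, a transcription factor of iron-handling macrophages, was measured on only 16 to 29 reads per library. It had 1.16, 1.28 and 1.1 FPKM in exercise libraries, against 1.66, 1.26 and 0.92 FPKM in sedentary libraries, and its interval of −0.72 to 0.34 says little at this depth.

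**Figure D2:**
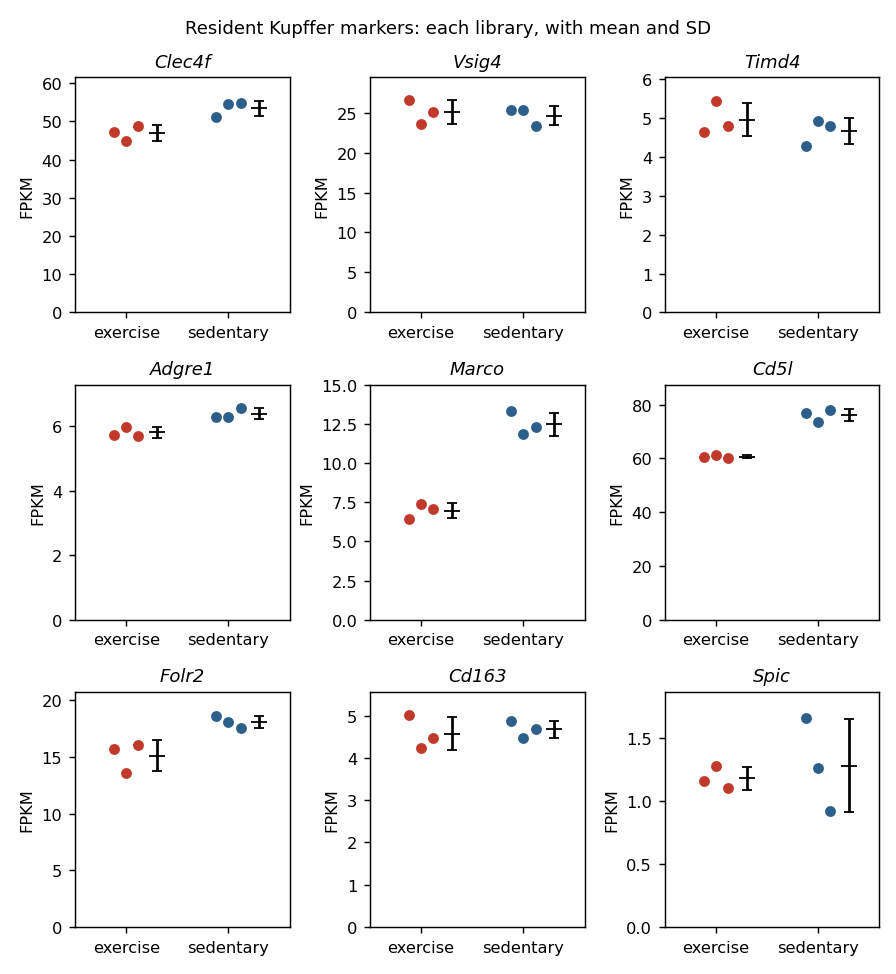
Deposited FPKM of the 9 resident Kupffer markers in each library (points, exercise left and sedentary right), with the mean and SD of the 3 libraries beside them; each panel starts at 0. For Marco, Cd5l, Clec4f, Folr2 and Adgre1 the groups are apart, and for Vsig4, Timd4, Cd163 and Spic they overlap.

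Ratios of reads within a library do not depend on the scaling between libraries. Per 100 reads of Clec4f, Marco had 10.6, 12.7 and 11.2 reads in exercise libraries, against 20.1, 16.9 and 17.4 in sedentary libraries. Vsig4 had 30.3, 28.4 and 27.7 reads per 100 of Clec4f in exercise libraries, against 26.5, 25.0 and 22.8 in sedentary libraries. So relative to Clec4f, Marco was lower and Vsig4 was higher in each exercise library than in any sedentary one. Timd4 had 8.25, 8.81 and 7.53 reads per 100 of Clec4f in exercise libraries, against 6.57, 6.96 and 6.72 in sedentary libraries, also without overlap. Cd5l overlapped on this measure, with 102 to 113 reads per 100 of Clec4f in exercise and 112 to 124 in sedentary libraries. These ratios were picked after the values of the genes were seen, and the differences between genes were not tested.

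**Figure D3:**
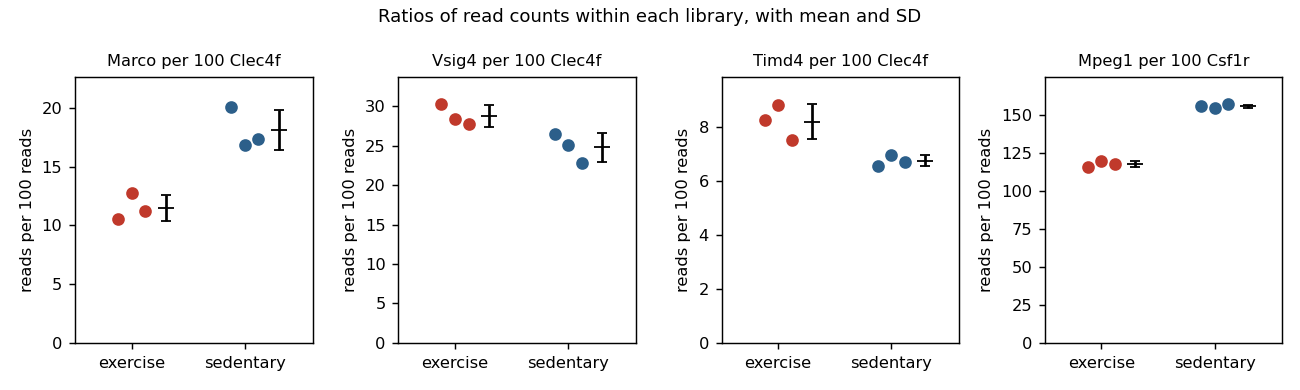
Reads of 1 marker per 100 reads of another within each library (points, exercise left and sedentary right), with the mean and SD of the 3 libraries; every axis starts at 0. Relative to Clec4f, Marco is lower and Vsig4 and Timd4 are higher in the exercise libraries, and Mpeg1 is lower relative to Csf1r.

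The promoters of Marco, of Timd4 and of 3 myeloid markers described further on are shown. Marco, Mpeg1 and Il1b had the largest log2 fold changes of the tested markers in either direction, Timd4 the smallest, and Ctss held matches to 2 motifs beside its start. Each stretch runs from 250 bases before to 50 bases after the RefSeq start, 5′ to 3′ on the strand of the gene, in GRCm38.p6. Capitals mark a match to a searched motif.
Marco promoter, chr1:120504975-120505274, minus strand: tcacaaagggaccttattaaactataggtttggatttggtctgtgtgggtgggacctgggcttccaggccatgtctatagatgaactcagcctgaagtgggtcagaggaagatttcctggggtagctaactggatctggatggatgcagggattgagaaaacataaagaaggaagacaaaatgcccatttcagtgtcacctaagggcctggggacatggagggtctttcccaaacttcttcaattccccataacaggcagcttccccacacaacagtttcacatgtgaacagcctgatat
Timd4 promoter, chr11:46810549-46810848, plus strand: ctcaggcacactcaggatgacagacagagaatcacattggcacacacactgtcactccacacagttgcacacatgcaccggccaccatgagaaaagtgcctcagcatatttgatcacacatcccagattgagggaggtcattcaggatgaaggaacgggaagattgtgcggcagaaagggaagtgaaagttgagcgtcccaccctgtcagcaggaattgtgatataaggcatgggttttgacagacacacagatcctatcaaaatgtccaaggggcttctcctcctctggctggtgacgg
Mpeg1 promoter, chr19:12460520-12460819, plus strand: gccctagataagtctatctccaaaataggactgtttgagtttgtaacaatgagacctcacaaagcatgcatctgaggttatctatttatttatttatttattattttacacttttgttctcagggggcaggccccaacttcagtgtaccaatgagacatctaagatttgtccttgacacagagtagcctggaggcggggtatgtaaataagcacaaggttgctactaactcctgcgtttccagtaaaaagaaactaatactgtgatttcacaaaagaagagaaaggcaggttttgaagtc
Ctss promoter, chr3:95526536-95526835, plus strand: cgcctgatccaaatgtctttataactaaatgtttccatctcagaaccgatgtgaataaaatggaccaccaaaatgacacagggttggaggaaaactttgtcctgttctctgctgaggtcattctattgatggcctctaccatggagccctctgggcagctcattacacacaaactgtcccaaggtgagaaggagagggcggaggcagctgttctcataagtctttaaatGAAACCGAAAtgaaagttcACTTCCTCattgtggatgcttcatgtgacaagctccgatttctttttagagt
Il1b promoter, chr2:129371090-129371389, minus strand: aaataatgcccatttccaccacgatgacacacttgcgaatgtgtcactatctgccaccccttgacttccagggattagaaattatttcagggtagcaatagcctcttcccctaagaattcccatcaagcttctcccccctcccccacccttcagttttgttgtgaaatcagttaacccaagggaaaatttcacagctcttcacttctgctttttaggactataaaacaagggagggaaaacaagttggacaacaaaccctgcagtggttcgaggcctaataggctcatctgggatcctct
The motifs were GAGGAAGT for PU.1, the lineage factor of macrophages, GAAA, any 2 bases and GAAA for interferon regulatory factors, TGANTCA for AP-1, and GGGA, any 2 bases and TTCC for NF-kappaB. Each was searched on both strands. Promoters were at hand for 27 of the 33 markers. The PU.1 letters were in the promoters of 2 of these genes, Ctss and Fcgr4, or 7.41%, against 3.20% of 32851 mouse promoters. The interferon factor letters were in those of 4 genes (Aif1, Ctss, Cybb and Fcgr4), or 14.8%, against 3.44% of all promoters. AP-1 letters were in 11.1% of the markers against 7.81% of all promoters, and NF-kappaB letters in 0 of 27 markers and 1.47% of all promoters. The marker shares count each gene once over the 30 promoters of the 27 genes, whereas the other shares count promoters. Marco, Timd4, Mpeg1 and Il1b held none of the 4 motifs in this window, which says only that these letters are not there.

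Of the 24 general myeloid markers, 19 were tested, of which 11 fell, 7 did not pass and 1 rose. Among all tested genes, 19.0% were lower and 19.1% higher by edgeR. The median log2 fold change of the general markers was −0.27, and that of the resident list −0.22. DESeq2 called 6 general markers lower and 1 higher, where it called 12.1% of all tested genes lower and 12.4% higher. Summed over each list, the resident markers had 173, 168 and 173 FPKM in exercise libraries, against 203, 200 and 203 FPKM in sedentary libraries. The general markers summed to 243, 243 and 244 FPKM in exercise libraries, against 293, 284 and 281 FPKM in sedentary libraries. Both sums were thus lower in each exercise library, and the ratio of the resident to the general sum overlapped, at 0.691 to 0.712 in exercise and 0.691 to 0.722 in sedentary libraries. The difference between the 2 lists was not tested.

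Genes of the phagolysosome, the compartment in which engulfed material is broken down, all passed. The 5 of them fell, with log2 fold changes between −0.67 and −0.28, and DESeq2 called 4 of them lower. Among all tested genes, edgeR called 19.0% lower and DESeq2 12.1%. Mpeg1, a pore-forming protein that acts on engulfed bacteria, led them.

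Mpeg1 had 16.27, 18.05 and 17.57 FPKM in exercise libraries, against 26.44, 26.08 and 25.95 FPKM in sedentary libraries. No exercise library came near the sedentary ones, and the fall of Mpeg1 (gene ID 17476, at 12460770 to 12465285 on chromosome 19) was 1.59-fold, a log2 fold change of −0.67 (SE 0.04, edgeR adjusted p = 6.28e-21). Per 100 reads of the macrophage growth factor receptor Csf1r, it had 116, 120 and 118 reads in exercise libraries, against 156, 155 and 157 in sedentary libraries.

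Lyz2, a lysozyme of macrophages, monocytes and neutrophils, had the highest mean FPKM of all 33 markers in both groups, although Cd5l was slightly above it in sedentary replicate 3. It had 69.2, 66.6 and 66.82 FPKM in exercise libraries, against 81.55, 80.69 and 77.92 FPKM in sedentary libraries, and fell 1.24-fold (log2 fold change −0.31, SE 0.04, edgeR adjusted p = 9.65e-09). Ctss, the cysteine protease cathepsin S, which trims the invariant chain of MHC class II, had 29.72, 34.54 and 31.98 FPKM in exercise libraries, against 37.47, 36.58 and 38.54 FPKM in sedentary libraries. It fell 1.23-fold (log2 fold change −0.30, SE 0.05, edgeR adjusted p = 4.48e-06). Neither gene overlapped between the groups.

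Laptm5, a lysosomal membrane protein of blood cells, had 8.3, 8.1 and 7.3 FPKM in exercise libraries, against 10.51, 9.4 and 8.76 FPKM in sedentary libraries, and fell 1.28-fold (edgeR adjusted p = 4.47e-05). Cd68, a glycoprotein of macrophage lysosomes, had 10.82, 8.82 and 9.47 FPKM in exercise libraries, against 11.9, 10.68 and 11.16 FPKM in sedentary libraries. Its groups overlapped, and its fall of 1.22-fold had an edgeR adjusted p of 0.0129. It no longer passed without exercise replicate 2 (log2 fold change −0.22, adjusted p = 0.0929) or without sedentary replicate 1 (−0.24, adjusted p = 0.0705), against −0.28 with all libraries. In all, Cd68 did not pass in 8 of 17 alternatives, among them DESeq2 (adjusted p = 0.0914) and each limma fit.

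**Figure D4:**
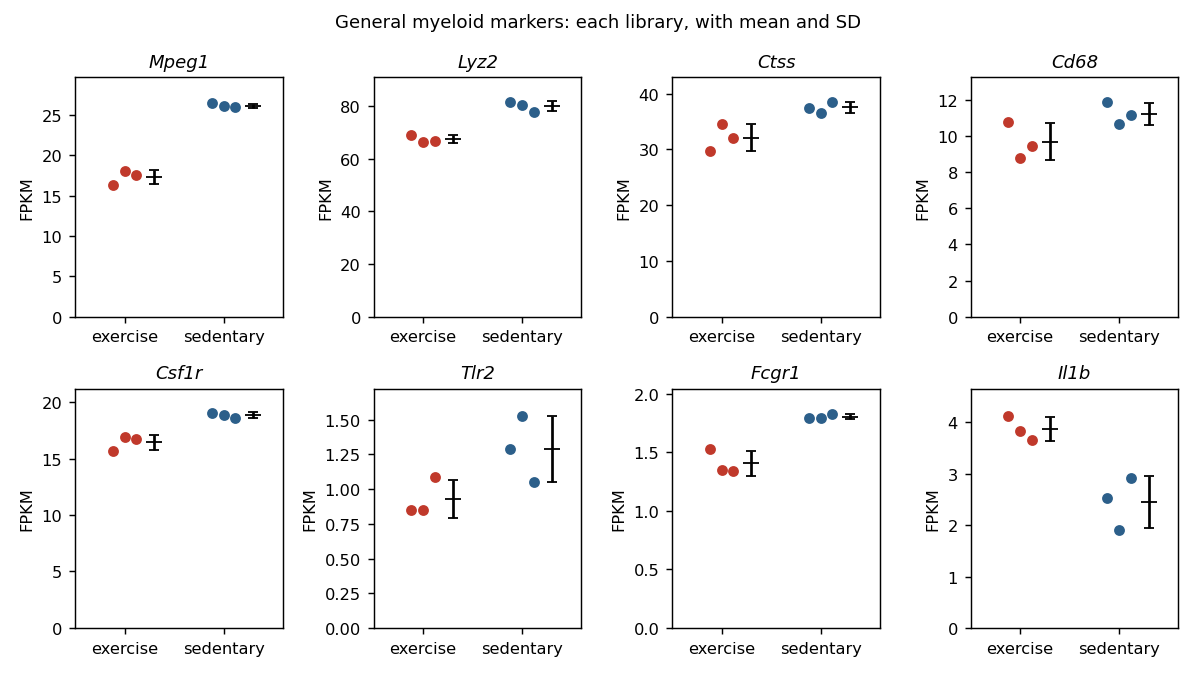
Deposited FPKM of 8 general myeloid markers in each library (points, exercise left and sedentary right), with the mean and SD of the 3 libraries; each panel starts at 0. Mpeg1, Lyz2, Ctss, Csf1r and Fcgr1 are lower in every exercise library, Cd68 and Tlr2 overlap, and Il1b is higher in every exercise library.

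Fc receptors bind the tails of antibodies, and Fcgr1, Fcgr3 and Fcgr4 signal through the adaptor encoded by Fcer1g. Tyrobp encodes another adaptor of myeloid cells. Of these 5 genes 1 fell and 4 did not pass by edgeR, near the 19.0% of all tested genes that were lower. DESeq2 called 0 of the 5 lower. All 5 had negative log2 fold changes, between −0.44 and −0.13. Fcgr1, the high-affinity receptor, had 1.53, 1.35 and 1.34 FPKM in exercise libraries, against 1.79, 1.79 and 1.83 FPKM in sedentary libraries. It fell 1.35-fold (log2 fold change −0.44, SE 0.14, edgeR adjusted p = 0.014) on 55 to 76 reads per library, without overlap, and did not pass by DESeq2 (adjusted p = 0.106).

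Fcer1g had 13.22, 13.66 and 14.87 FPKM in exercise libraries, against 16.45, 15.27 and 16.77 FPKM in sedentary libraries. Its groups did not overlap, but it missed the threshold (log2 fold change −0.27, SE 0.12, edgeR adjusted p = 0.0694), which it passed with limma on log2(FPKM + 1) (adjusted p = 0.0159). Tyrobp had 29.21, 26.13 and 27.74 FPKM in exercise libraries, against 32.23, 31.91 and 28.59 FPKM in sedentary libraries (edgeR adjusted p = 0.0936), so exercise replicate 1 overlapped with sedentary replicate 3. Fcgr3 and Fcgr4, which lie beside Fcer1g on chromosome 1, overlapped between the groups. Their log2 fold changes were −0.13 (95% interval −0.35 to 0.08) for Fcgr3 and −0.17 (−0.44 to 0.09) for Fcgr4. Fc receptor genes share sequence, so reads could be assigned to the wrong copy, although the deposited counts of all 33 markers were whole numbers.

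Of the 5 genes that sense or bind microbial products, 3 were tested, of which 2 fell and 1 did not pass by edgeR. DESeq2 called 0 of the 3 lower. Over all tested genes the shares called lower were 19.0% by edgeR and 12.1% by DESeq2. Tlr2, a receptor for bacterial lipoproteins, had 0.85, 0.85 and 1.09 FPKM in exercise libraries, against 1.29, 1.53 and 1.05 FPKM in sedentary libraries. Sedentary replicate 3 lay within the range of the exercise libraries. Tlr2 fell 1.47-fold (log2 fold change −0.56, SE 0.17, edgeR adjusted p = 0.00905), but did not pass without sedentary replicate 2 (log2 fold change −0.42, adjusted p = 0.0911) or by DESeq2 (adjusted p = 0.0748). In all, Tlr2 did not pass in 6 of 16 alternatives, among them each limma fit.

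Msr1, the class A scavenger receptor, had 5.03, 4.94 and 4.95 FPKM in exercise libraries, against 5.72, 5.9 and 5.66 FPKM in sedentary libraries. It fell 1.18-fold without overlap (edgeR adjusted p = 0.00915), and missed the threshold without exercise replicate 1 (adjusted p = 0.0538) and by DESeq2 (adjusted p = 0.0804). Cd14, a receptor for lipopolysaccharide that hepatocytes can also make, did not pass, with 2.02 to 2.29 FPKM in exercise and 1.83 to 2.71 FPKM in sedentary libraries (log2 fold change −0.16, 95% interval −0.49 to 0.18). Tlr4, the signalling receptor for lipopolysaccharide, had 38 to 51 reads in exercise and 34 to 59 reads in sedentary libraries, and Clec4e, an inducible lectin, had 0 to 1 reads in exercise and 1 to 3 in sedentary libraries. Both were below the filter.

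The membrane subunits of the phagocyte oxidase, which makes superoxide against microbes, both fell, where edgeR called 19.0% of all tested genes lower. Cyba, which other cells of the liver express as well, had 14.04, 12.82 and 14.24 FPKM in exercise libraries, against 17.29, 16.37 and 16.41 FPKM in sedentary libraries. Cybb, the catalytic subunit, had 3.08, 3.19 and 2.8 FPKM in exercise libraries, against 3.39, 3.69 and 3.58 FPKM in sedentary libraries. Neither overlapped. Cyba fell 1.27-fold (log2 fold change −0.35, SE 0.11, edgeR adjusted p = 0.00821, and 0.0754 by DESeq2) and Cybb fell 1.24-fold (log2 fold change −0.31, SE 0.08, edgeR adjusted p = 0.000833, and 0.0661 with limma on log2(TPM + 1)).

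Of 6 surface proteins of macrophages, leukocytes and monocytes, 3 were tested, of which 1 fell and 2 did not pass. EdgeR called 19.0% of all tested genes lower, so 1 of 3 says little about this list. Csf1r had 15.71, 16.89 and 16.75 FPKM in exercise libraries, against 19.06, 18.89 and 18.56 FPKM in sedentary libraries. The groups were apart, and Csf1r fell 1.21-fold (log2 fold change −0.27, SE 0.04, edgeR adjusted p = 1.58e-07). Ptprc, the CD45 antigen of all leukocytes, overlapped, with 1.86, 2.11 and 2.3 FPKM in exercise libraries, against 2.26, 2.03 and 2.22 FPKM in sedentary libraries (log2 fold change −0.11, 95% interval −0.30 to 0.07). Aif1, an actin-binding protein of macrophages, overlapped too, with 4.9, 5.75 and 6.54 FPKM in exercise libraries, against 6.61, 6.09 and 5.33 FPKM in sedentary libraries (log2 fold change −0.14, 95% interval −0.44 to 0.17).

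The 3 remaining surface markers, which monocytes carry, were measured on few reads in both groups. Ccr2, the chemokine receptor of inflammatory monocytes, had 18, 20 and 21 reads in exercise libraries, against 17, 16 and 30 reads in sedentary libraries. Cx3cr1, the fractalkine receptor, had 11, 9 and 11 reads in exercise libraries, against 9, 10 and 16 reads in sedentary libraries. Itgam, an integrin of monocytes and neutrophils, had 16, 24 and 15 reads in exercise libraries, against 32, 28 and 25 reads in sedentary libraries. All 3 lay below 1 FPKM. The groups overlapped for Ccr2 and Cx3cr1, and not in reads for Itgam. In a fit without the filter, Itgam was called lower (log2 fold change −0.67, SE 0.24, edgeR adjusted p = 0.0462), while Ccr2 (adjusted p = 0.764) and Cx3cr1 (adjusted p = 0.716) did not pass.

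Il1b, the inflammatory cytokine interleukin 1 beta, was the marker that rose. It had 4.12, 3.83 and 3.66 FPKM in exercise libraries, against 2.53, 1.91 and 2.91 FPKM in sedentary libraries. Every exercise library was above every sedentary one, on 71 to 78 reads in exercise and 36 to 55 reads in sedentary libraries. The rise of Il1b (gene ID 16176, at 129364569 to 129371164 on chromosome 2) was 1.53-fold, a log2 fold change of 0.61 (SE 0.16, edgeR adjusted p = 0.00184). Per 100 reads of Lyz2 it had 8.36, 8.08 and 7.83 reads in exercise libraries, against 4.31, 3.28 and 5.21 in sedentary libraries.

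Other genes of macrophages and their surroundings were read from lists that are separate from the 33 markers. Of 25 further genes linked to Kupffer cells, 23 were tested. Of those, 12 fell, 8 did not pass and 3 rose, and the median log2 fold change was −0.11. Among all tested genes, edgeR called 19.0% lower and 19.1% higher. The 4 with the smallest p all fell. C1qc, a chain of the first complement component made largely by macrophages, fell 1.25-fold (edgeR adjusted p = 1.36e-07), and C1qb, another chain, fell 1.19-fold (adjusted p = 6.38e-06). Sdc3, a proteoglycan, fell 1.23-fold (adjusted p = 4.8e-09), and Lgmn, a lysosomal protease, fell 1.15-fold (adjusted p = 3.33e-05). The 3 that rose, named after their values were seen, were Hmox1, the heme-degrading enzyme (1.21-fold, adjusted p = 0.000512), Cd38 (1.22-fold, adjusted p = 0.0052) and the mannose receptor Mrc1 (1.12-fold, adjusted p = 0.00622), which sinusoidal endothelial cells also express. Of the 23, 16 had a negative log2 fold change. Clec1b (0.04, edgeR adjusted p = 0.827), Fabp7 (0.01, 0.964) and Cd207 (0.33, 0.143), also named after their values were seen, did not fall.

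Among 16 transcription factors with known roles in macrophages, 13 were tested. Of those, 8 fell, 3 did not pass and 2 rose, where 19.0% of all tested genes were lower and 19.1% higher. The median was −0.14. Several of them are also expressed by hepatocytes. Irf5, a factor of inflammatory gene expression, fell 1.5-fold (edgeR adjusted p = 2.58e-09), and Cebpb, which hepatocytes share, fell 1.28-fold (adjusted p = 1.51e-08). Id3, which supports Kupffer cell development but is made by other liver cells too, rose 1.23-fold, with 77.3, 76.53 and 79.83 FPKM in exercise libraries, against 59.81, 60.14 and 61.88 FPKM in sedentary libraries (adjusted p = 3.88e-07).

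Of 13 genes of growth factors and niche signals in the table, 10 were tested. Of those, 4 rose, 4 did not pass and 2 fell, where 19.1% of all tested genes were higher and 19.0% lower, and the median was 0.10. The share lower is thus near that of all genes. Jag1 and Dll4 reached the filter only through their exercise libraries. Csf1, the ligand of the receptor encoded by Csf1r, fell 1.25-fold (edgeR adjusted p = 0.00394), and Csf2rb, a cytokine receptor chain, fell 1.19-fold (adjusted p = 0.0355). Jag1, a Notch ligand, rose 1.41-fold (adjusted p = 0.000925), and Gdf2, a bone morphogenetic protein made by stellate cells, rose 1.18-fold (adjusted p = 0.00587). The other two that rose, named after their values were seen, were the Notch ligands Dll1 (1.23-fold, adjusted p = 0.0421) and Dll4 (1.32-fold, adjusted p = 0.0471). DESeq2 called 1 of this list higher and 1 lower.

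Chemokines and adhesion molecules that recruit monocytes and neutrophils had 3 of 7 tested genes lower and 0 higher by edgeR. The same numbers came from DESeq2, which called 12.1% of all tested genes lower, and at an unadjusted p under 0.05, where 22.8% were lower. Cxcl1, a neutrophil attractant that hepatocytes can make, had 4.04, 4.24 and 4.26 FPKM in exercise libraries, against 7.13, 9.03 and 8.73 FPKM in sedentary libraries, and fell 2.08-fold (edgeR adjusted p = 4.91e-08). Ccl9 and Ccl6, chemokines of mouse myeloid cells, fell 1.51-fold (adjusted p = 4.22e-17) and 1.59-fold (adjusted p = 1.69e-05). Icam1 did not pass (log2 fold change 0.14, adjusted p = 0.167). Of 13 inflammatory cytokines and inflammasome genes, only 4 were tested. EdgeR called 1 of them higher and 1 lower, near the 19.1% and 19.0% of all tested genes. Il1a rose 1.33-fold (adjusted p = 0.0356, and it did not pass by DESeq2), Gsdmd, the pore-forming gasdermin, fell 1.2-fold (adjusted p = 0.000163), and Il18 (adjusted p = 0.619) and Casp1 (adjusted p = 0.55) did not pass.

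**Figure D5:**
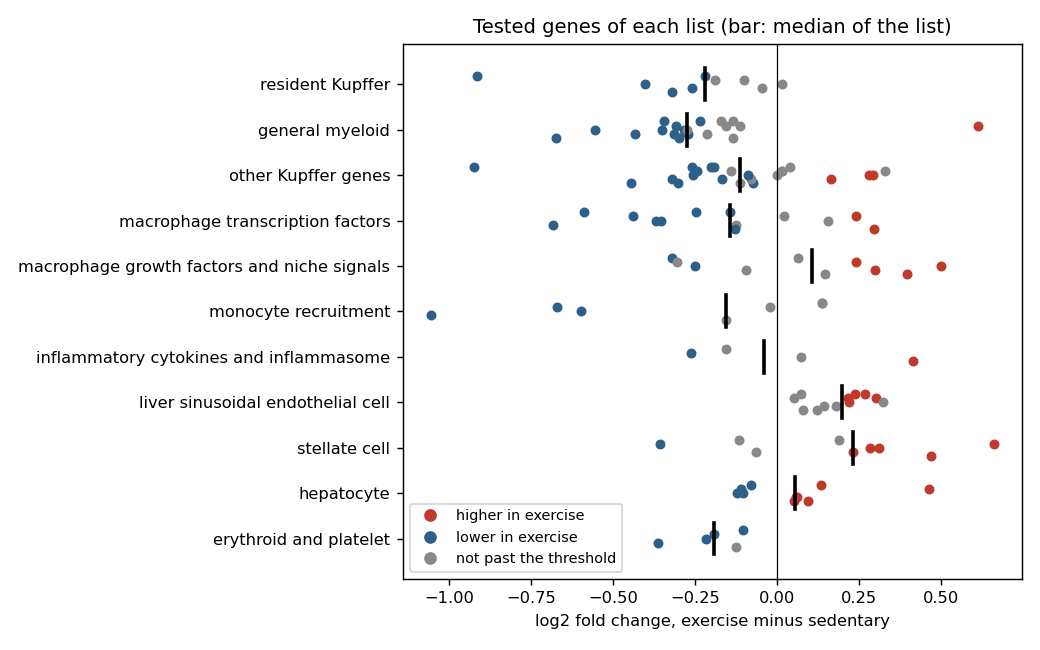
Log2 fold change, exercise minus sedentary, of the tested genes of each list (points, coloured by call) with the median of the list as a bar. Both marker lists lie mostly left of 0, with Il1b the point at the right, and the 12 endothelial genes all lie right of 0.

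Markers of other cell types moved as well, and their part in the results was not tested. The 12 markers of liver sinusoidal endothelial cells, the neighbours of Kupffer cells in the sinusoid, had 5 genes that rose and 0 that fell by edgeR, and a median of 0.20. At an unadjusted p under 0.05, 8 were higher (23.0% of all tested genes) and 0 lower (22.8%), and DESeq2 called 4 higher (12.4%) and 0 lower (12.1%). They summed to 163 to 171 FPKM in exercise and 144 to 146 FPKM in sedentary libraries. The 10 stellate cell markers had 5 of 9 tested members higher and 1 lower, where edgeR called 19.1% of all tested genes higher and 19.0% lower. They summed to 168 to 172 FPKM in exercise and 129 to 131 FPKM in sedentary libraries, mostly from Dcn and Ecm1. Dcn rose 1.21-fold (edgeR adjusted p = 2.48e-10) and Ecm1 1.38-fold (adjusted p = 2.31e-15). The collagen gene Col3a1, named after its values were seen, fell 1.28-fold (adjusted p = 1.38e-06). The endothelial and stellate sums were higher in each exercise library, while both macrophage sums were lower. Of the 10 hepatocyte markers, edgeR called 6 higher and 4 lower, where 19.1% and 19.0% of all tested genes were. The changes were mostly small, with a median log2 fold change of 0.05 and a range of −0.12 to 0.46. Of the 3 most abundant, Alb was 1.06-fold lower, Apoa1 1.08-fold lower and Ttr 1.04-fold higher.

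Blood-borne cells are a further source of myeloid transcripts. Of 14 neutrophil markers 10 were below the filter, 8 were at 0 in at least 1 library, and Ly6g was listed at 0 in every exercise library. The list summed to 11.6 to 14.0 FPKM in exercise and 22.0 to 29.3 FPKM in sedentary libraries, most of the gap being Prtn3, with 0.84, 1.18 and 1.41 FPKM in exercise libraries, against 10.59, 9.79 and 10.09 FPKM in sedentary libraries. S100a8 (edgeR adjusted p = 0.382) and S100a9 (adjusted p = 0.316) did not pass. The 7 classical monocyte markers summed to 13.5 to 14.8 FPKM in exercise and 18.1 to 20.9 FPKM in sedentary libraries, mostly from Plac8, which fell 1.38-fold (adjusted p = 0.00183). The 8 red cell and platelet genes summed to 336 to 353 FPKM in exercise and 382 to 395 FPKM in sedentary libraries. Hbb-bs, a haemoglobin chain, was 1.29-fold lower in exercise (edgeR adjusted p = 2.22e-08). Hba-a1 and Hba-a2, also haemoglobin chains, overlapped between the groups and were 1.14-fold and 1.16-fold lower (adjusted p = 0.00608 and 0.0134). Of 5 tested genes edgeR called 4 lower and DESeq2 1, against 19.0% and 12.1% of all tested genes. The T and NK cell list summed to 4.12 to 4.63 FPKM in exercise and 2.85 to 3.72 FPKM in sedentary libraries. Dendritic cell, T and NK cell and B cell lists had 1, 0 and 3 tested genes, of which none passed by edgeR or DESeq2, nor at an unadjusted p under 0.05.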

How the data were processed

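Liver RNA of 3 exercised and 3 sedentary mice was sequenced in pairs on a DNBseq instrument after TRIzol extraction, per the labels' protocols. Reads were handled with cutadapt, featureCounts and MultiQC on build GRCm38.p6, according to the submitters' processing notes. Not given in the sources used here are the aligner, versions and strand setting.

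Per the file headers, the table gives a read count, an FPKM and a TPM for each gene and library. The deposited counts are estimated counts, not whole for 1165 of 16123 genes, and were rounded. The deposited FPKM values are scaled by transcript length and library size, and the authors' TPM values are scaled to a fixed sum per library.

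Counts were tested with edgeR 4.0.16 in R 4.3.3 (TMM, quasi-likelihood F test, two-sided, no covariates, Benjamini-Hochberg over 10266 genes with a mean of at least 1 FPKM). TMM factors were 1.03 in exercise libraries and 0.972 to 0.977 in sedentary libraries. SEs were taken from the fold change and the F statistic, and 95% intervals use the degrees of freedom of the fit. The test was checked on simulated counts whose spread was set to that of these libraries, so the check cannot speak to the spread among mice. DESeq2 1.42.0, limma 3.58.1, other scalings and filters, single left-out libraries and a replicate block were alternatives. A test against a 1.2-fold change was added after seeing the data. Intervals cover the spread of these libraries only, and whether these come from separate animals rests on the design text.

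All 33 markers are named. Of each related list, the 4 tested genes with the smallest p are named, and of each cell type list up to 3 of its most abundant genes or genes at 0. A gene that this rule names is not reported here. The members and lists were chosen with earlier results of these data known. Coordinates and promoters are from RefSeq (GRCm38.p6). Promoters of Adgre1, Csf1r, Cd14, Msr1, Tlr4 and Tyrobp were not used here.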

Additional observations from a re-analysis of the deposited data

How the results depend on the processing

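Of the 16 markers called lower, 9 passed in every alternative other than the test against a 1.2-fold change (Marco, Cd5l, Mpeg1, Clec4f, Csf1r, Lyz2, Ctss, Laptm5 and Folr2). DESeq2 called 10 markers lower, against 12.1% of all genes, and the test against a 1.2-fold change called 3 lower and 0 higher (Il1b adjusted p = 0.0654). With the filter raised to a mean of 5 FPKM, 0 markers were called higher, since Il1b was not tested there. The median of the resident markers stayed negative, at −0.14 without TMM, −0.19 with the 20 most abundant genes left out of the totals, −0.30 at a mean FPKM of at least 5, −0.12 with limma on log2(FPKM + 1), −0.13 with limma on log2(FPKM + 0.1) and −0.089 with limma on log2(TPM + 1). That of the general markers was −0.20 without TMM and −0.19, −0.21 and −0.16 in the same 3 limma fits. These scalings and fits also moved the median of all genes, by up to 0.10 for TPM. With 1 library left out, 15 to 16 markers were lower and 1 was higher, and the medians were −0.24 to −0.21 for resident and −0.28 to −0.24 for general markers.

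Signs changed for markers that passed in no fit. Vsig4 was at 0.032 without TMM and at 0.025, 0.026 and 0.059 in the limma fits on log2(FPKM + 1), log2(FPKM + 0.1) and log2(TPM + 1). Cd163 was at 0.0015 with limma on log2(TPM + 1). With 1 library left out, Timd4 ranged from −0.033 to 0.050, Spic from −0.380 to 0.038 and Cd14 from −0.283 to 0.0024. The signs changed without sedentary replicate 1 and, for Timd4, also without exercise replicate 2 (−0.0056).

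The labels number the samples of both groups 1 to 3 but do not say that numbers pair mice. Same-numbered samples had deviations from their group means that correlated at −0.026, −0.0059 and −0.0088. Libraries of a group differed little more than counting noise, so these correlations cannot show whether the numbers pair mice. A fit with the replicate number as a block called 16 markers lower and 1 higher, with medians of −0.22 and −0.28. Depth limits Spic, Tlr4, Ccr2, Cx3cr1, Itgam and Clec4e, with at most 59 reads per library.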

Other observations

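Genes that mark lipid-associated macrophages, a state seen in fatty or injured liver, were read as a further list of 6. Of these, 4 were tested, of which 3 fell and 1 rose, where 19.0% of all tested genes were lower and 19.1% higher. Spp1, which encodes osteopontin and is also made by bile duct cells, averaged 30.5 ± 0.751 FPKM in exercise and 60.7 ± 1.29 FPKM in sedentary libraries (SD, n = 3 each), and fell 2.09-fold (edgeR adjusted p = 4.4e-26). Fabp5, a fatty acid binding protein, fell 1.24-fold (adjusted p = 8.44e-07), Lgals3, the lectin galectin 3, fell 1.43-fold (adjusted p = 0.00147), and Cd9, a tetraspanin of many cells, rose 1.13-fold (adjusted p = 0.0266, and it did not pass by DESeq2). The more specific markers of that state were near the limit of detection, with Trem2 at 0.400 ± 0.199 FPKM in exercise and 0.460 ± 0.272 FPKM in sedentary libraries, and Gpnmb at 0.05 ± 0.05 FPKM in exercise and 0.0333 ± 0.0153 FPKM in sedentary libraries. Lgals3, Trem2 and Gpnmb were named after their values were seen.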
